A study of Mus musculus with 11 samples.

Results

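The genes described here are 10 members of the cellular antioxidant system, most of them targets of the transcription factor NRF2, measured in E0771 mammary tumors with and without depletion of pyruvate carboxylase. The list holds Slc7a11, Gclc, Gclm and Gsr of the glutathione system, Txnrd1 and Srxn1 of the thioredoxin system, Nqo1 and Hmox1 of quinone and heme metabolism, and Cat and Sod2, which remove hydrogen peroxide and superoxide. Each was taken by its symbol in the array annotation, with the brightest probe set to be used where a symbol had several. All 10 had exactly 1 probe set, so the list covers 10 of the 19505 symbols and 10 of the 22206 probe sets on the array.

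NRF2, encoded by Nfe2l2, is held in the cytosol and marked for degradation by KEAP1 until oxidants or electrophiles modify the cysteines of KEAP1. Stabilized NRF2 then pairs with small MAF proteins at antioxidant response elements and raises transcription of enzymes that make glutathione, reduce thioredoxin, detoxify quinones and break down heme. Catalase and the mitochondrial superoxide dismutase act directly on reactive oxygen species, and Sod2 is also a well known target of NF-kB in inflammation. In tumors these enzymes are studied both in cancer cells and in infiltrating myeloid cells, which produce oxidants of their own.

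E0771 is a mammary carcinoma line of C57BL/6 origin. Its cells carried a lentiviral scrambled shRNA (scram, n = 4 tumors) or a lentiviral shRNA against Pcx, the gene of pyruvate carboxylase, either shPC25 (n = 3 tumors) or shPC28 (n = 4 tumors), and were selected with puromycin as transduced cells before injection. Tumors grew in the fourth mammary fat pad of otherwise untreated C57BL6J mice, which were female and 8 to 12 weeks old, on a diet shared by all 3 groups, and the sample titles add LFD without spelling it out. The hairpins act only in the injected cells, the host cells of the tumor keep their Pcx, and no repeat of the transduction is given, so replicate tumors stand for separate mice and not for separate transductions.

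Clariom S arrays gave a log2 signal for each probe set in each of the 11 tumors, so a difference of 1 is a doubling. Array medians lay between 5.89 and 6.08. Pcx itself was dim, with signals of 3.41, 3.89, 4.48 and 4.13 in scram tumors 1 to 4, 3.19, 3.42 and 3.12 in shPC25 tumors 1 to 3, and 3.76, 2.90, 2.32 and 3.44 in shPC28 tumors 1 to 4. In 10 of 11 tumors this lay under 4.30, the 95th percentile of 1091 probe sets for olfactory receptors, which a tumor would not express, so the differences that follow are between signals mostly not above background and do not measure the depletion. The signal was under the scram mean in 7 of 7 shPC tumors, with a difference of -0.80 (SE 0.27, adjusted p = 0.388 by limma with Benjamini-Hochberg adjustment over all probe sets). The single-hairpin differences were -0.73 (SE 0.33, adjusted p = 0.588) for shPC25 and -0.87 (SE 0.30, adjusted p = 0.542) for shPC28. Tumor shPC28 replicate 4 stood apart by its lymph node markers Glycam1 and Ccl21a, whose mean log2 signal was 10.99 there and at most 4.39 in every other tumor, and by its B cell markers, at 8.11 against at most 4.93. Of the mammary epithelial markers, Krt8 was bright in every tumor (13.56 to 14.61), while Krt18, Krt19, Epcam and Cdh1 lay between 2.73 and 7.51.

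The DNA letters that NRF2 dimers are known to bind are shown here because 7 of the members have a promoter sequence from RefSeq (build GRCm38.p6, from 250 bases before to 50 bases after a gene start). The core of the antioxidant response element, TGACNNNGC, was searched on both strands. Its letters TGAC also open an AP-1 site, so the motifs can overlap. Forms of the element that open with other letters, such as TGAG, were not searched. Matches were found in the promoters of 3 members, and 1 of the 3 promoters of Txnrd1 held one. Each line gives 29 bases of the plus strand with the match in capitals, read here in the opposite orientation (GCNNNGTCA).
Srxn1, chr2:152105542-152105570, 28 bases after the gene start: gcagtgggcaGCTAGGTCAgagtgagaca
Gclm, chr3:122245413-122245441, 134 bases before the gene start: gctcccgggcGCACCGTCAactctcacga
Txnrd1, chr10:82859104-82859132, 92 bases before the gene start: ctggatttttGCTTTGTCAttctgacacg
The same core occurred in 12.4% of 32851 mouse promoters of this length. Counted by gene, as for the members, 14.0% of 27025 genes had it in any promoter. The promoters of Nqo1, Slc7a11, Cat and Sod2 held no match in this window, and Hmox1, Gclc and Gsr were not examined. A match describes the letters only, and a missing match concerns the form TGACNNNGC alone.

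The comparison with scram asked whether antioxidant genes differed in tumors grown from PC-depleted cells. No member passed the limma threshold. For both shPC groups combined, 0 of 10 members had an adjusted p below 0.05, against 0.0135% of all probe sets. The lowest adjusted p was that of Sod2, the mitochondrial superoxide dismutase, which was at 70.9% of the scram level. At an unadjusted p below 0.05 there was 1 member, again Sod2, against 9.11% of all probe sets. Signals of shPC and scram tumors did not separate completely for any of the 10 members, while they did for 1.54% of all probe sets.

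As deposited, 7 members were lower and 3 higher in both shPC groups together, with a median difference of -0.10 and a range from -0.67 (Slc7a11) to 0.27 (Gclm). The median over all probe sets was 0.02. Centring every array on its median moved all differences of this comparison up by 0.095 and left 5 members lower and 5 higher. The median over all probe sets moved with them, to 0.114, so the members kept their place relative to it. Against scram, shPC25 had 8 members lower and 2 higher (median -0.18), and 6 lower after centring, which moved its differences by 0.123. For shPC28, 6 were lower and 4 higher (median -0.04), and 4 were lower after centring. The medians over all probe sets were then 0.141 for shPC25 and 0.079 for shPC28. With shPC25, 0 members passed at an adjusted p below 0.05 (all probe sets 0%) and 0 at an unadjusted p below 0.05 (all probe sets 8.45%). With shPC28 the counts were 0 (all probe sets 0%) and 1, which was Sod2 (all probe sets 7.41%). Both comparisons use the same 4 scram tumors.

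**Figure D1:**
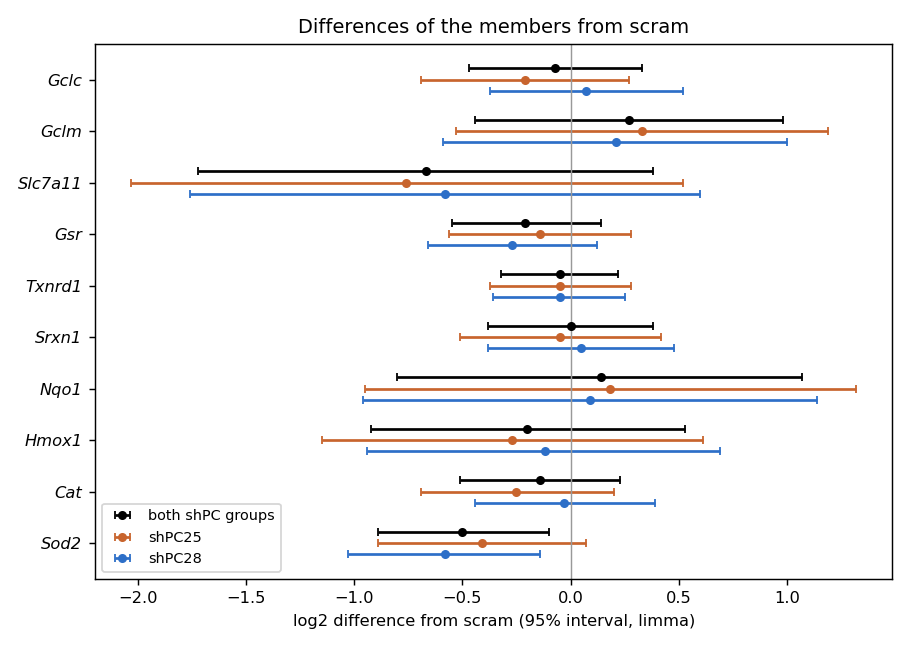
Log2 difference from scram (horizontal axis) of each of the 10 antioxidant genes (vertical axis) for both shPC groups together, shPC25 and shPC28, with bars for the 95% interval of the limma fit. The interval for both groups together leaves out 0 for Sod2 only (-0.89 to -0.10), and Slc7a11 and Nqo1 have the widest intervals.

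Slc7a11 encodes xCT, the transporter that brings cystine into the cell for glutathione synthesis, and is a target of ATF4 as well as of NRF2. Its log2 signals were 10.34, 9.60, 11.38 and 10.23 in scram tumors 1 to 4, 8.98, 10.59 and 9.32 in shPC25 tumors 1 to 3, and 9.89, 8.83, 9.28 and 11.22 in shPC28 tumors 1 to 4. The groups overlapped widely, with scram replicate 3 and shPC28 replicate 4 highest and shPC28 replicate 2 lowest. Scram averaged 10.39 ± 0.74 (SD, n = 4), shPC25 9.63 ± 0.85 (SD, n = 3) and shPC28 9.80 ± 1.04 (SD, n = 4). The difference of both shPC groups from scram was -0.67 (SE 0.48, 95% interval -1.72 to 0.38, adjusted p = 0.741 by limma), or 62.9% of the scram level with an interval from 30.4% to 130%. By hairpin it was -0.76 (SE 0.58, adjusted p = 0.776) for shPC25 and -0.58 (SE 0.54, adjusted p = 0.876) for shPC28. Slc7a11 varied more within groups than 97.8% of all probe sets (pooled SD 0.89), and its difference was -0.91 without the lymph node-rich shPC28 replicate 4 and -0.34 without scram replicate 3.

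Glutamate-cysteine ligase makes the first product of glutathione synthesis and has a catalytic subunit, Gclc, and a modifier subunit, Gclm. Gclc signals were 11.82, 11.94, 12.25 and 11.47 in scram tumors, 12.02, 11.59 and 11.37 in shPC25 tumors, and 12.05, 11.70, 11.81 and 12.21 in shPC28 tumors, each in replicate order. Scram replicate 3 was highest and shPC25 replicate 3 lowest, and the groups overlapped. The difference of both shPC groups from scram was -0.07 (SE 0.18, 95% interval -0.47 to 0.33, adjusted p = 0.946 by limma), and its sign turned to 0.03 with median centring. Gclm signals were 13.51, 13.22, 14.07 and 12.61 in scram, 13.75, 14.42 and 12.88 in shPC25, and 13.88, 13.07, 13.45 and 13.83 in shPC28. Here shPC25 replicate 2 was highest and scram replicate 4 lowest. The difference was 0.27 (SE 0.32, 95% interval -0.44 to 0.98, adjusted p = 0.856), the highest among the members. The modifier subunit varied more within groups than the catalytic one, with pooled SDs of 0.58 and 0.29.

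Glutathione reductase, encoded by Gsr, returns oxidized glutathione to its reduced form with NADPH. Its signals were 14.96, 14.45, 14.94 and 14.44 in scram, 14.57, 14.62 and 14.48 in shPC25, and 14.74, 14.30, 14.16 and 14.51 in shPC28. Scram replicates 1 and 3 were the highest, and scram replicates 2 and 4 lay among the shPC tumors. Of the 7 shPC tumors, 6 lay below the scram mean of 14.70 ± 0.29 (SD, n = 4). The difference was -0.21 for both groups (SE 0.16, 95% interval -0.55 to 0.14, adjusted p = 0.758 by limma), -0.14 for shPC25 (SE 0.19, adjusted p = 0.888) and -0.27 for shPC28 (SE 0.18, adjusted p = 0.795).

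Thioredoxin reductase 1, the product of Txnrd1, passes electrons from NADPH to thioredoxin. It was the steadiest member. The signals were 15.18, 15.38, 15.25 and 15.11 in scram, 15.19, 15.35 and 15.01 in shPC25, and 14.97, 15.21, 15.17 and 15.35 in shPC28. Its pooled SD within groups was 0.15, and only 7.94% of all probe sets varied less. The difference of both shPC groups was -0.05 (SE 0.12, 95% interval -0.32 to 0.22, adjusted p = 0.94 by limma), and with median centring its sign turned to 0.04. The interval leaves room for a change to no less than 80.2% and no more than 116% of the scram level.

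Sulfiredoxin, encoded by Srxn1, repairs overoxidized peroxiredoxins. Srxn1 signals were 11.74, 12.19, 12.59 and 12.32 in scram, 11.96, 12.13 and 12.40 in shPC25, and 12.00, 12.22, 12.32 and 12.51 in shPC28. Scram held both the lowest tumor, replicate 1, and the highest, replicate 3. Both shPC groups together differed from scram by 0.00 (SE 0.17, 95% interval -0.38 to 0.38, adjusted p = 0.998 by limma).

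Nqo1, the quinone reductase that is often used as a readout of NRF2 activity, had 7.60, 7.54, 8.10 and 6.81 in scram, 8.17, 8.57 and 6.35 in shPC25, and 8.49, 7.18, 7.72 and 7.02 in shPC28. The highest and the lowest tumor, replicates 2 and 3, were both shPC25 tumors, and scram lay between them. Scram averaged 7.51 ± 0.53 (SD, n = 4), shPC25 7.70 ± 1.18 (SD, n = 3) and shPC28 7.60 ± 0.66 (SD, n = 4). Groups held 1.16% of the variation of Nqo1 across the 11 tumors. The difference of both shPC groups was 0.14 (SE 0.43, 95% interval -0.80 to 1.07, adjusted p = 0.958 by limma), and it turned to -0.10 without scram replicate 4, to -0.08 without shPC25 replicate 2 and to -0.01 without shPC28 replicate 1.

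Heme oxygenase 1, encoded by Hmox1, splits heme into biliverdin, iron and carbon monoxide, and is abundant in macrophages that take up red cells. The Hmox1 signals were 16.83, 17.04, 17.46 and 15.91 in scram, 16.70, 16.73 and 16.20 in shPC25, and 17.26, 15.77, 16.55 and 17.16 in shPC28. Scram replicate 3 was highest, and shPC28 replicate 2 and scram replicate 4 were lowest. Both shPC groups together differed from scram by -0.20 (SE 0.33, 95% interval -0.92 to 0.53, adjusted p = 0.909 by limma), and it was 0.02 without scram replicate 3. Macrophage markers are given beside it because they were also lower: 8 of 8 measured markers were lower in both shPC groups together (median -0.62, 0 called, 6 at an unadjusted p below 0.05, where 9.11% of all probe sets were). Their mean log2 signal ran from 11.94 to 12.41 in scram, from 11.15 to 11.31 in shPC25 and from 11.67 to 12.08 in shPC28. The defining markers were bright in every tumor, with Csf1r at 10.74 to 12.49 and Adgre1 at 10.14 to 12.16. Their part in the Hmox1 values was not tested. In whole tumors, fewer cells of a type and less RNA per cell cannot be told apart, here and for every gene below.

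Catalase, which breaks down hydrogen peroxide in peroxisomes, was nearly level with 1 exception. Its signals were 14.77, 14.69, 14.96 and 14.67 in scram, 14.89, 13.97 and 14.71 in shPC25, and 14.69, 14.84, 14.79 and 14.66 in shPC28. Only shPC25 replicate 2, at 13.97, lay apart. The other 10 tumors lay between 14.66 and 14.96. Both shPC groups together differed from scram by -0.14 (SE 0.17, 95% interval -0.51 to 0.23, adjusted p = 0.857 by limma).

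Sod2, which turns mitochondrial superoxide into hydrogen peroxide, had signals of 15.10, 14.79, 15.13 and 14.47 in scram tumors 1 to 4, 14.26, 14.93 and 14.20 in shPC25 tumors 1 to 3, and 14.25, 14.12, 14.29 and 14.50 in shPC28 tumors 1 to 4. Scram replicates 1 and 3 were highest. Of the 7 shPC tumors, 5 lay below every scram tumor, and the groups overlapped through scram replicate 4, shPC25 replicate 2 and shPC28 replicate 4. Scram averaged 14.87 ± 0.31 (SD, n = 4), shPC25 14.46 ± 0.41 (SD, n = 3) and shPC28 14.29 ± 0.16 (SD, n = 4). The difference of both shPC groups was -0.50 (SE 0.18, 95% interval -0.89 to -0.10), or 70.9% of scram with an interval from 53.8% to 93.4%. Its limma p was 0.019 before and 0.439 after Benjamini-Hochberg adjustment over all probe sets. By hairpin the difference was -0.41 for shPC25 (SE 0.22, adjusted p = 0.672) and -0.58 for shPC28 (SE 0.20, adjusted p = 0.542). The difference was -0.63 without scram replicate 4 (adjusted p = 0.265) and -0.41 without scram replicate 3 (adjusted p = 0.711). Groups held 50.7% of the variation of Sod2, where the median probe set had 18.0%.

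**Figure D2:**
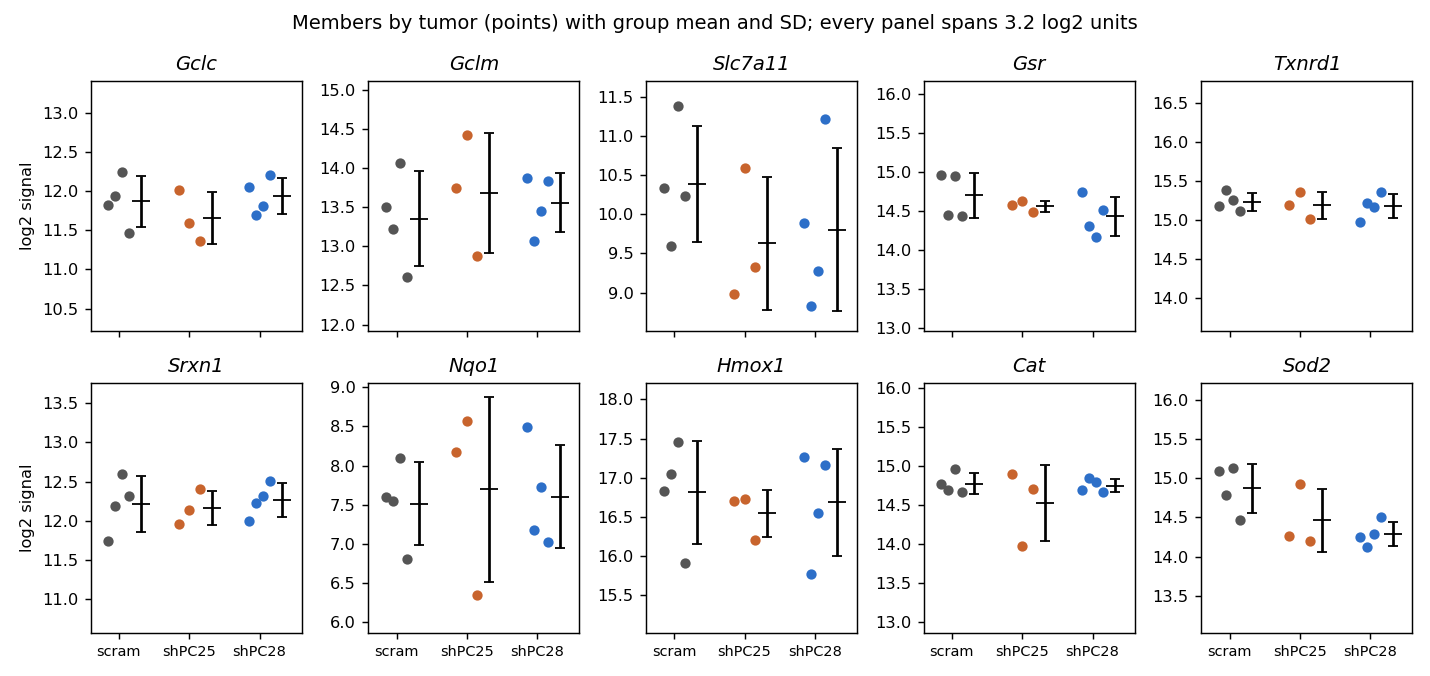
Log2 signal (vertical axis, the same span of 3.2 units in every panel) of the 10 genes in each tumor of the scram, shPC25 and shPC28 groups, with points for tumors and bars for the group mean and SD. Signals of scram and shPC tumors overlapped for all 10 genes. Sod2 had 5 of 7 shPC tumors below the lowest scram tumor, and Slc7a11 and Nqo1 had the widest scatter.

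Neutrophil markers, NF-kB targets and fibroblast markers are given beside Sod2 because they differed in the same direction. The macrophage markers above and the skeletal muscle markers (4 of 4 lower, median -0.55, 0 called) did so too. T cell, B cell, endothelial and lymph node markers had higher medians in the shPC groups together. For shPC25 alone the medians were -0.22 for T cell and -0.09 for B cell markers, against 0.91 for each with shPC28. In shPC28 replicate 4 the B cell mean was 8.11, while every other shPC tumor lay under the scram mean of 4.53. The lymph node mean was 10.99 there and 3.87 to 4.39 in the other shPC tumors. The mean of the 8 neutrophil markers measured was 10.70, 9.31, 10.33 and 8.33 in scram, 7.0, 8.85 and 8.02 in shPC25, and 8.05, 7.48, 7.56 and 8.24 in shPC28, and 7 of 8 markers were lower in both shPC groups together (median -1.87, 0 called, 6 at an unadjusted p below 0.05, where 9.11% of all probe sets were). The 5 tumors of lowest Sod2, all of them shPC tumors, had neutrophil means of at most 8.05, and the 6 others had 8.24 or more. Among these markers, S100a8 ran from 9.37 to 14.05 and Cxcr2, the neutrophil chemokine receptor, from 6.15 to 10.46, while Camp stayed between 2.15 and 3.82, under the same olfactory receptor percentile of 4.30. All 12 NF-kB targets listed were lower in both shPC groups together (median -0.68, 0 called, 5 at an unadjusted p below 0.05), with a mean log2 signal from 10.86 to 11.53 in scram, from 10.13 to 11.09 in shPC25 and from 10.27 to 11.19 in shPC28. The NF-kB target means were 10.13 to 10.49 in the 5 tumors of lowest Sod2 and 10.86 or more in the 6 others. The 7 fibroblast markers measured were also all lower (median -2.20, 0 called, 6 at an unadjusted p below 0.05), and their means ran from 9.17 to 11.45 in scram, from 7.60 to 9.13 in shPC25 and from 7.16 to 9.34 in shPC28. Fibroblast and macrophage means overlapped between the 5 tumors of lowest Sod2 and the 6 others. Among the 5, shPC28 replicate 1 had a fibroblast mean of 9.34, above the 8.48 of shPC28 replicate 4. Among the 6 others, shPC25 replicate 2 had the lowest macrophage mean of all tumors, 11.15. The part of these marker and target lists in the Sod2 values was not tested.

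**Figure D3:**
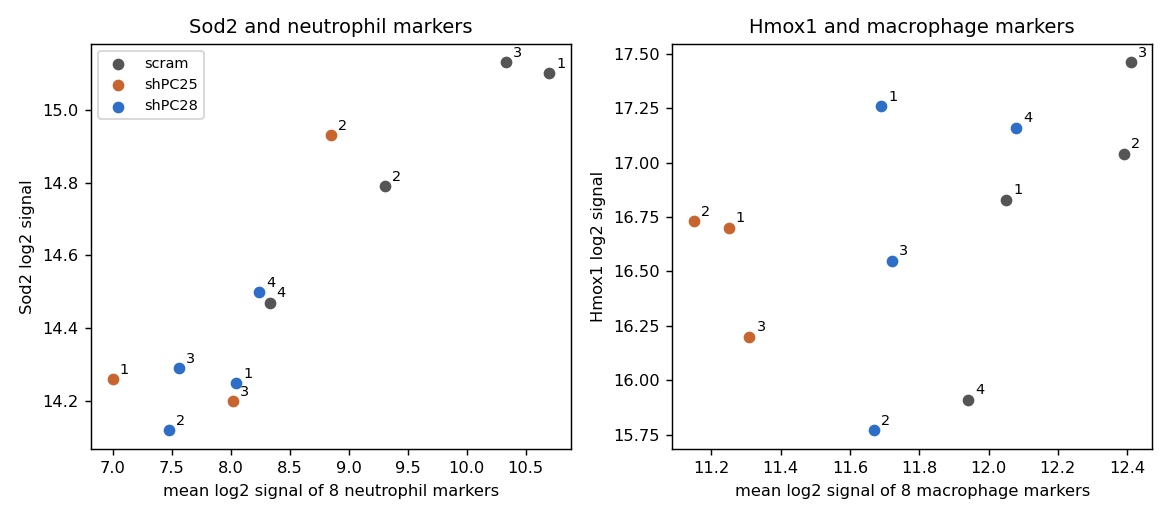
Left, log2 signal of Sod2 (vertical axis) against the mean log2 signal of 8 neutrophil markers (horizontal axis) in each tumor, and right, Hmox1 against 8 macrophage markers, with colors for the groups and numbers for the replicates. The 5 tumors with Sod2 from 14.12 to 14.29 had neutrophil means from 7.0 to 8.05, and the scram tumors with the highest Sod2, replicates 1 and 3, had the highest neutrophil means, 10.70 and 10.33.

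The hairpins were also set against each other. Between shPC28 and shPC25, 0 of 10 members had an adjusted p below 0.05 (all probe sets 0%) and 0 an unadjusted p below 0.05 (all probe sets 4.61%). Of the members, 5 were higher and 5 lower in shPC28, with a median difference of 0.05. The largest was that of Gclc, 0.28 (SE 0.22, 95% interval -0.20 to 0.77, adjusted p = 0.993 by limma), with means of 11.94 ± 0.23 in shPC28 (SD, n = 4) and 11.66 ± 0.33 in shPC25 (SD, n = 3). The intervals reached from -1.10 to 1.45 for Slc7a11 and from -0.33 to 0.32 for Txnrd1, so the limit that these tumors set on a difference between hairpins varied widely by gene.

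For 9 of 10 members, all but Sod2, tumors within a group held more of the variation than the groups did. The same holds for most probe sets, since the median probe set had 18.0% of its variation between groups. Scram replicate 3 was among the 3 highest tumors for 8 of 10 members and among the 3 lowest for 0, and lay on average 0.53 above the mean of all tumors. Scram replicate 4, of the same group, was among the 3 lowest for 7 members and the 3 highest for 0, at -0.28. Of the shPC25 tumors, replicate 3 was among the 3 lowest for 6 members (average -0.39) and replicate 2 among the 3 highest for 5 (average 0.21). Among shPC28 tumors, replicate 2 was among the 3 lowest for 5 members (average -0.36), and replicates 1 and 4 were among the 3 highest for 5 members each (averages 0.14 and 0.21). Each group held a tumor above and a tumor below the mean of all tumors by this average, but the shPC tumors were mixed. Replicate 1 of shPC28 was also among the 3 lowest for 3 members. Replicate 2 of shPC25 and replicate 4 of shPC28 were among the 3 lowest for 2 members each. Replicate 3 of shPC25 and replicate 2 of shPC28 were among the 3 highest for 1 member each.

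**Figure D4:**
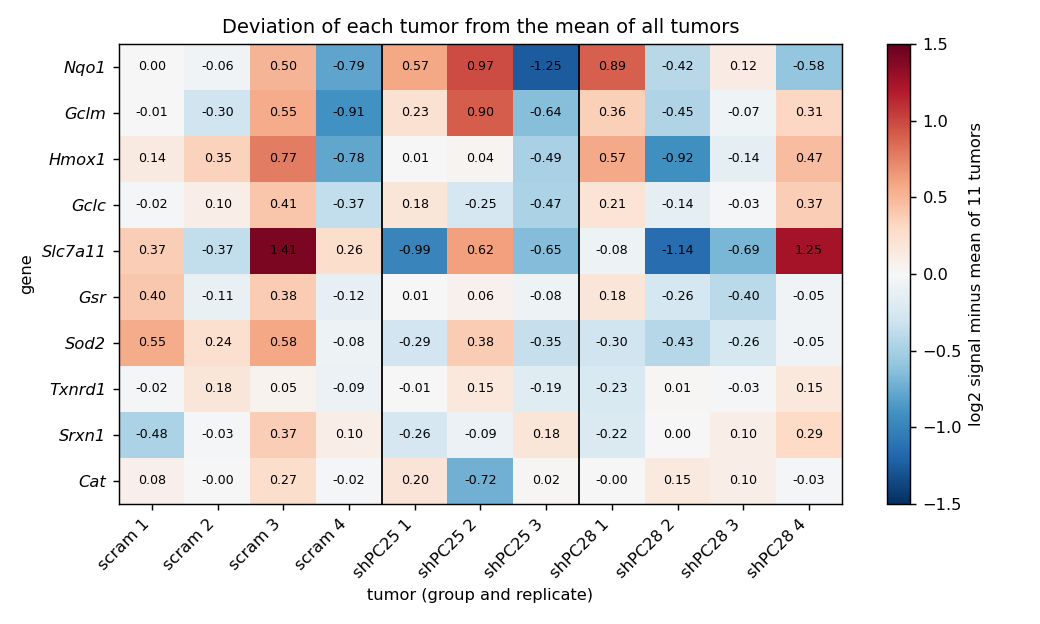
Deviation of each tumor (horizontal axis, by group and replicate) from the mean of the 11 tumors, in log2 units, for each of the 10 genes (vertical axis), with red for higher and blue for lower and the value in each cell. Scram replicate 3 was high and scram replicate 4 low for most genes, and shPC25 replicate 2 was high for Nqo1 and Gclm and low for Cat.

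Correlations among the members were computed over the 11 tumors for all 45 pairs, by permutation with 100000 resamples, two-sided. After Benjamini-Hochberg adjustment over the 45 pairs, 0 passed at 0.05. Pearson's r was above 0 for 35 pairs and below 0 for 10. The highest was for Nqo1 and Gclm (r = 0.82, permutation p = 0.00238, adjusted p = 0.0659, Spearman's rho = 0.81, permutation p = 0.00386, adjusted p = 0.0702). Without the 2 tumors farthest from the median of Nqo1 r was 0.71, and for deviations from the group means it was 0.82. The relation was thus as high within the groups as over all tumors, and it missed the threshold after adjustment.

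Hmox1 and Gclc followed (r = 0.81, permutation p = 0.00293, adjusted p = 0.0659, rho = 0.84, permutation p = 0.00229, adjusted p = 0.0702). The value was 0.87 without the 2 farthest tumors and 0.85 for deviations from the group means. Hmox1 and Gclm had r = 0.73 (permutation p = 0.0121, adjusted p = 0.176, rho = 0.75, permutation p = 0.0117, adjusted p = 0.132), with 0.54 without the 2 farthest tumors and 0.82 for deviations from the group means. Slc7a11 and Sod2 had r = 0.71 (permutation p = 0.0181, adjusted p = 0.176, rho = 0.80, permutation p = 0.00468, adjusted p = 0.0702), with 0.77 and 0.72 on the same checks. The relation of Gsr with Sod2 rested on the 2 farthest tumors, with r = 0.69 over all tumors (permutation p = 0.0196, adjusted p = 0.176, rho = 0.55, permutation p = 0.0877, adjusted p = 0.329) and 0.26 without them, and it was 0.57 for deviations from the group means.

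Outside the list, the genes most like each member in pattern over the 11 tumors were taken by Pearson's r among 9822 brighter probe sets with a symbol, as a description. Those nearest to Sod2 were Trem1, an activating receptor of neutrophils and monocytes (r = 0.96), Cxcr2 (r = 0.94) and Rnf149 (r = 0.93). Hmox1 was nearest to Klhl6 (r = 0.90), Stk17b (r = 0.89) and Slc48a1, a heme transporter and NRF2 target (r = 0.89). Gclc was nearest to Rab32 (r = 0.94), Fli1 (r = 0.92) and Ccng1 (r = 0.90), of which Fli1 is a transcription factor of blood and endothelial cells.

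For Nqo1 and Gclm the same gene stood first, Dop1b, with r = 0.86 and 0.91. Slc7a11 was nearest to Ampd3 (r = 0.90), Ppp1r15a, a stress-induced phosphatase subunit (r = 0.88), and Plgrkt (r = 0.88). Gsr was nearest to Mcl1, a survival factor of the BCL2 family (r = 0.93), Ranbp9 (r = 0.92) and Zdhhc20 (r = 0.92). Txnrd1 was nearest to Gca (r = 0.90), Pea15a (r = 0.89) and Tnfrsf4 (r = 0.89). Srxn1 was nearest to Nkiras1 (r = 0.89), and Cat to Lamb2 and Tapbpl (r = 0.94 for each). The points share 11 tumors, and the nearest of so many probe sets are high by choice.

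Regulators of NRF2 were measured with 10 of 10 listed genes, of which 4 were higher and 6 lower in both shPC groups together (median -0.11, 0 called). Keap1, the repressor, had 9.76, 10.04, 9.69 and 9.71 in scram, 10.20, 10.04 and 10.14 in shPC25, and 9.78, 10.20, 10.32 and 10.38 in shPC28, a difference of 0.35 (SE 0.14, adjusted p = 0.503 by limma). Nfe2l2, the gene of NRF2, had 8.48, 8.34, 8.69 and 8.39 in scram, 8.01, 7.36 and 8.31 in shPC25, and 8.36, 8.62, 7.78 and 8.11 in shPC28, a difference of -0.42 (SE 0.20, adjusted p = 0.583). In Keap1 6 of 7 shPC tumors lay above the scram mean, and in Nfe2l2 6 of 7 lay below it, while the groups overlapped for both. The related factor Nfe2l1 was at -0.27 (SE 0.12, adjusted p = 0.542) and Bach1, which competes with NRF2 for its sites, at -0.19 (SE 0.12, adjusted p = 0.697).

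Other NRF2 targets were measured with 22 of 25 listed genes, 7 higher and 15 lower (median -0.07, 0 called, 2 lower at an unadjusted p below 0.05). The 2 were Me1 and Mgst1, a share near the 9.11% of all probe sets at that level. Me1, the cytosolic malic enzyme that makes NADPH, had 9.14, 10.44, 9.59 and 8.64 in scram, 7.14, 9.10 and 6.56 in shPC25, and 8.84, 6.48, 7.54 and 8.89 in shPC28. It was under the scram mean in 7 of 7 shPC tumors, lowest in shPC28 replicate 2 and shPC25 replicate 3, with a difference of -1.68 (SE 0.58, adjusted p = 0.396 by limma). Mgst1, a membrane-bound glutathione transferase, differed by -1.34 (SE 0.52, adjusted p = 0.467), with scram replicate 3 highest at 12.82.

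Glutathione genes outside the list numbered 17 measured of 19 listed, 8 higher and 9 lower (median 0.00, 0 called). Gpx3, the secreted glutathione peroxidase, had 10.16, 11.16, 9.99 and 10.44 in scram, 8.09, 8.96 and 8.68 in shPC25, and 9.18, 8.99, 9.06 and 9.73 in shPC28. The groups did not overlap, and the difference of -1.53 (SE 0.25) missed the threshold at an adjusted p of 0.0692 by limma. Oplah, which recycles 5-oxoproline to glutamate, was at -0.73 (SE 0.22, adjusted p = 0.325). Thioredoxins and peroxiredoxins, with 12 of 14 listed genes measured, had 2 higher and 10 lower (median -0.11, 0 called). Their smallest p belonged to Msra, a methionine sulfoxide reductase, at -0.62 (SE 0.30, adjusted p = 0.581).

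Sod3, the extracellular superoxide dismutase, was the only gene of the redox lists called, within a group of other superoxide, heme and NADPH enzymes of which 10 of 11 were measured (4 higher, 6 lower, median -0.14). It had 9.45, 8.0, 8.39 and 7.56 in scram, 5.02, 5.80 and 5.73 in shPC25, and 6.45, 5.64, 6.02 and 6.16 in shPC28. Groups did not overlap, and Sod3 fell by 2.56 on the log2 scale (SE 0.32, adjusted p = 0.0394 by limma). The fibroblast markers were lower in the same comparison (7 of 7, median -2.20), and their part in the Sod3 values was not tested. The call was lost with quantile normalization (adjusted p = 0.0568), with the methods' t-test, which the study names for comparing a pair of groups in general (0.162), and with the replicate number as a block (0.117). It was also lost without scram replicate 2 (0.0837) or 3 (0.0826), without shPC25 replicate 1 (0.0878) or 3 (0.0740), and without shPC28 replicate 2 (0.117), 3 (0.103) or 4 (0.117). Sod1, the cytosolic dismutase, named here after its values were seen, was at 0.07 (SE 0.16, adjusted p = 0.939), with 3 of 7 shPC tumors below the scram mean. Whether the dismutases differed from one another was not tested.

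Oxidant-producing enzymes, with 11 of 13 listed genes measured, had 4 higher and 7 lower (median -0.09, 0 called). Nos2, the inducible nitric oxide synthase, was at -1.30 (SE 0.55, adjusted p = 0.517 by limma), with scram replicate 3 highest at 13.68 and shPC28 replicate 2 lowest at 9.88. Rac2, a GTPase that activates the phagocyte NADPH oxidase, was at -0.68 (SE 0.33, adjusted p = 0.584). Its means were 10.69 in scram, 9.5 in shPC25 and 10.53 in shPC28, so the hairpins differed. Nox1, a catalytic NADPH oxidase subunit, was higher at 0.55 (SE 0.24, adjusted p = 0.54), with every signal under 4.30. Iron and heme handling genes, with 10 of 10 measured, had 2 higher and 8 lower (median -0.36, 0 called). Among them Hp, which binds free hemoglobin, was at -2.10 (SE 0.50, adjusted p = 0.206), Tfrc, the transferrin receptor, at -0.92 (SE 0.30, adjusted p = 0.371), and Lcn2, a neutrophil granule protein that binds iron siderophores, at -2.08 (SE 0.91, adjusted p = 0.535). Hamp, the gene of hepcidin, was higher at 0.41 (SE 0.18, adjusted p = 0.542), with means from 3.64 to 4.17. Of the NF-kB targets, Il1b was at -1.0 (SE 0.33, adjusted p = 0.377) and Icam1 at -0.68 (SE 0.23, adjusted p = 0.376). The neutrophil, macrophage and fibroblast marker values given above accompany these genes too, and their part was not tested.

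**Figure D5:**
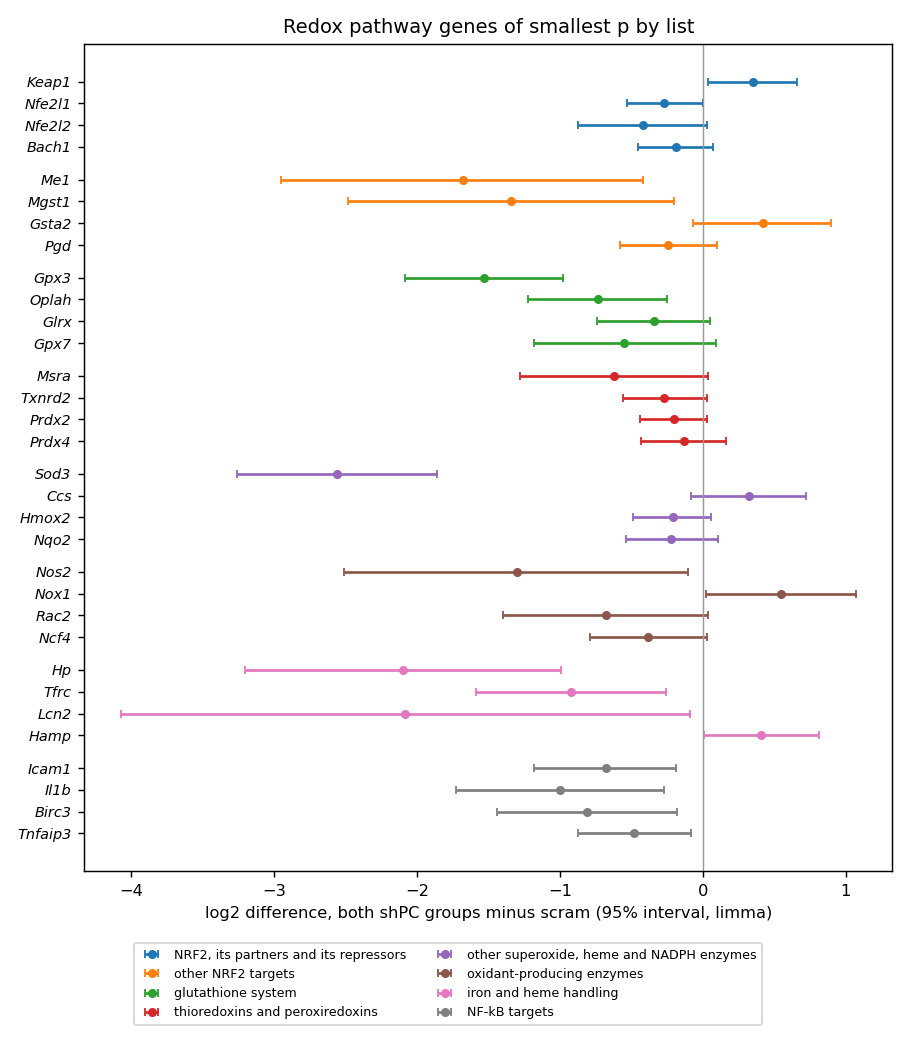
Log2 difference of both shPC groups from scram (horizontal axis, bars for the 95% interval of the limma fit) for up to 4 genes of smallest p in each of 8 redox and inflammation lists (colors), so that these genes are the extremes of their lists. Only Sod3, at -2.56, passed the threshold, and Keap1, Gsta2, Ccs, Nox1 and Hamp are the genes shown above 0. Of these, Gsta2, Nox1 and Hamp had group means under 4.30, the 95th percentile of the olfactory receptor probe sets.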

How the data were processed

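RNA of 11 E0771 tumors was hybridized to mouse Clariom S arrays and analysed by the authors in the Transcriptome Analysis Console. They deposited log2 signals, normalized between arrays, with 1 value per probe set and tumor. How probes were summarized, corrected for background or filtered is not given in the sources used here. Groups and replicate numbers came from the labels, which name no scan or hybridization batch. Symbols came from the platform annotation.

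No filter or further normalization was applied to the deposited log2 signals. A model with 1 mean per group was fitted to all 22206 probe sets and 11 tumors with the lmFit and eBayes functions of limma 3.58.1 (R 4.3.3), two-sided, with Benjamini-Hochberg adjustment over all probe sets and a threshold of 0.05. The number of arrays limits the precision. The limma p-values set each group difference against the spread between tumors of a group, and those of the correlations come from permuting the tumors. The fit was tested on simulated data. Correlations, motif searches and plots used numpy 2.4.6, scipy 1.17.1 and matplotlib 3.10.9. Genes called are those past the adjusted threshold.

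The members and all gene lists were chosen with earlier results of these data known. Named genes were the members, Pcx, up to 4 genes of smallest p in each pathway list for both shPC groups against scram, and the 3 genes of highest r with each member among symbols at or above the median mean signal. In the text some of these are summarized, and a few marker genes are named to show their lists. Marker lists covered neutrophils, macrophages, fibroblasts, T and B cells, endothelium, adipocytes, muscle, erythroid cells, mammary epithelium and lymph node. The median differences of both shPC groups from scram were 0.21 for T cell, 0.41 for B cell, 0.23 for endothelial, -0.22 for adipocyte, -0.55 for muscle, -0.17 for epithelial and 1.06 for lymph node markers, with 0 called, and 1 erythroid gene was at 0.38. B cell and lymph node means were far higher in shPC28 replicate 4 than in any other tumor. With shPC25 alone the T cell and B cell medians were below 0. Listed genes without a matching symbol are not analysed here.

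The alternatives were the methods' t-test (stated for pairs of groups in general, while array genes were called by the authors in the vendor's software), array weights, median centring, quantile normalization, a robust prior with a trend, a fit restricted to the groups under comparison, a filter that leaves out the dimmer probe sets, averaging the probe sets of a gene, the replicate block and leaving out each tumor in turn.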

Additional observations from a re-analysis of the deposited data

Results flagged for a closer look

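Within the groups of 4 tumors, 88 groups of values over 44 named genes were examined for a highest or lowest tumor standing far from the rest by Dixon's criterion (critical value 0.829), which chance exceeds in about 1 of 20 groups. It was exceeded in 4, all of them by shPC28 replicate 4 as the highest of its group, and in 0 of the 10 members. The values were 15.39 for Prdx2, a cytosolic peroxiredoxin, 12.98 for Hmox2, the constitutive heme oxygenase, 16.17 for Lcn2, and 11.41 for Birc3, an inhibitor of apoptosis induced by NF-kB. The same tumor had the high lymph node and B cell markers.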

How the results depend on the processing

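Across 20 alternatives, 0 of 10 members passed the threshold in any of the 4 comparisons, with a smallest adjusted p of 0.234 for both shPC groups against scram, 0.451 for shPC25, 0.329 for shPC28 and 0.822 between hairpins by limma or the methods' t-test. Some alternative changed the sign of 5, 5, 7 and 8 of the 10 differences in these comparisons. For both shPC groups, median centring gave 0.026 for Gclc and 0.044 for Txnrd1, and array weights gave -0.089 for Nqo1. The cause was not tested. With 1 tumor left out, the difference ran from -0.154 to 0.130 for Srxn1, from -0.496 to 0.021 for Hmox1, from -0.202 to 0.058 for Gclc, from -0.097 to 0.474 for Nqo1, from -0.020 to 0.158 for Sod1 and from -0.630 to -0.410 for Sod2. The median difference of the members then ran from -0.187 to -0.012. With the replicate block it was -0.117, and Sod2 was at -0.512 (adjusted p = 0.542). Deviations of same-numbered tumors correlated at -0.18 to 0.14 over all probe sets. Differently numbered tumors were not compared, so these values cannot settle whether a number stands for a shared batch. Among the genes followed across the alternatives, the block changed no call but that of Sod3. Calls of other probe sets were not followed. Dim probe sets such as that of Pcx limit what their signals can show.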
